A study of Homo sapiens with 12 samples.

Results

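The clustered histone genes were examined in poly(A)-selected RNA of ES2 cells, a line derived from an ovarian carcinoma, after loss of the mitochondrial ferredoxin FDX2. The members are the protein-coding genes whose GENCODE 29 symbol begins with HIST1H, HIST2H, HIST3H or HIST4H. This gave 71 of the 58735 genes in the count table, namely 6 H1, 17 H2A, 18 H2B, 15 H3 and 15 H4 genes, of which 55 lie on chromosome 6, 15 on chromosome 1 and 1 on chromosome 12. The family was selected on measured values: it was chosen by the rise of H2BC15 (HIST1H2BN) and H2BC5 (HIST1H2BD) after FDX2 loss at 20% O2, so values from that comparison are given here as a description and without a test. Genes are called by their current symbols where these matched (66 of 71), and by the GENCODE 29 symbol otherwise.

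All 12 libraries came from FDX2-iKO ES2 cells, in which the endogenous FDX2 gene was knocked out by genome editing and an HA-tagged FDX2 was expressed only in the presence of doxycycline (Doxy), so that removal of Doxy depletes FDX2 and all conditions share the edited background. Cells were kept with Doxy or without Doxy for 6 days at 20% O2, or for 4 days at 20% O2 and 3 more days at 3% O2, with 3 libraries for each of the 4 conditions. Doxy itself, and the longer culture at 3% O2, cannot be told apart from FDX2 and oxygen in these comparisons. For the 3% O2 conditions, removal of Doxy began in the 4 days at 20% O2. Differences set up there and carried over cannot be told apart from those that arose at 3% O2. FDX2 had only 2 to 13 counts per library and was not tested, so the depletion could not be checked on these counts.

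The libraries held 24958386 to 34313637 counts each. The 71 members took 1613 to 2542 of these with Doxy and 4029 to 5011 without Doxy. In each of the conditions other than 20% O2 without Doxy, 1 library stood apart from its partners over all genes: replicate 1 at 20% O2 with Doxy, replicate 3 at 3% O2 with Doxy and replicate 1 at 3% O2 without Doxy. No pair of replicates differed by as little as sampling noise (mean chi-square per gene 2.47 to 37.5). Of 10 ovarian and epithelial markers, KRT7 (506 CPM on average, where CPM are counts scaled to a total of 1000000 per library), KRT18 (504 CPM), KRT8 (68.6 CPM) and PAX8 (10 CPM) were detected above 1 CPM and MUC16 was at 0 in every library; none of 8 markers of blood, endothelial, muscle, liver or other cells reached 1 CPM on average, and their sum was 0.281 to 1.45 CPM per library.

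Histones package DNA into nucleosomes. H2A, H2B, H3 and H4 form the core around which DNA is wound, and H1 binds the linker between cores. Most copies sit in clusters and are transcribed mainly in S phase, when new DNA needs new nucleosomes. Their mRNAs usually lack both introns and a poly(A) tail: the 3′ end is cut after a short stem-loop, bound by the stem-loop binding protein SLBP, instead of being polyadenylated. Selection on poly(T) beads therefore captures only the fraction of these transcripts that carries a tail. Polyadenylated forms of some clustered histone genes, made by splicing past the stem-loop or by use of a downstream poly(A) signal, are known from differentiated and non-dividing cells. In these bulk poly(A) libraries a change in the number of tailed transcripts, in the share of transcripts that are tailed and in the share of cells that make them cannot be told apart.

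The annotated transcripts were searched for a stem-loop and for a poly(A) signal. Models that hold coding sequence only, such as those of H2BC12 and H1-2, could show neither. The counts below are therefore limited by the annotation and do not show which transcripts could be captured. A stem-loop motif was found in GENCODE 29 transcripts of 31 members, a poly(A) signal (AATAAA or ATTAAA in the last 50 bases) in 22, and a coding transcript with more than 1 exon in 9 (H2AC6, H2BC4, H2BC5, H2BC6, H2BC11, H2BC15, H2BC18, H3C6 and H4C8). The stem-loop with its flanks is shown for 8 of the more abundant members, to show how little it varies between genes that responded and genes that did not; the 16 bases in capitals are the stem and loop.
H2BC15: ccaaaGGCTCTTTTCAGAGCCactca
H2BC5: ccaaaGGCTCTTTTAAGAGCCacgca
H2BC21: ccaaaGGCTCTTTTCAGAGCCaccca
H2BC9: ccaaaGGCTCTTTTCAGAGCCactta
H2AC6: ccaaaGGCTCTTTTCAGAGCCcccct
H2AC11: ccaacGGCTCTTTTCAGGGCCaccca
H2AC25: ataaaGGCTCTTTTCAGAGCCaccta
H4C8: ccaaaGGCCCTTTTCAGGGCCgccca
H2BC15, H2AC6, H2AC25, H2BC21 and H2BC9 carried the same 16 bases, and the H2AC11 motif was the only one of those listed whose stem was not fully complementary.

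In H2BC4, H2BC5 and H2BC11 the annotated intron begins 12, 12 and 6 bases after the end of the coding sequence, so the spliced transcript leaves the stem-loop out and ends after a poly(A) signal. H2AC6 and H4C8 keep the stem-loop in a spliced form, with the intron starting 127 and 157 bases after the coding end. Another spliced form of H2AC6 has its intron 11 bases after the coding end, with neither stem-loop nor poly(A) signal. In the H2BC15 transcript whose end is shown, the last intron lies before the coding end, and the stem-loop is absent. The end of the spliced transcript is shown for 6 of these genes, with the poly(A) signal in capitals.
H2BC15: aaaaggcaAATAAAaatctgttcttaga
H2BC5: ttataattAATAAAatctgcggagaatt
H2BC11: aataaatgAATAAAgtaatattcctctg
H2BC4: aagacaaaATTAAAataactcctagtat
H2AC6: catgaggtAATAAAaggtaatgc
H4C8: aaaaggtgAATAAAatcaggtcactctt
The signal began 20, 25, 21, 23, 15 and 25 bases before the annotated end in that order. H2BC4 has the variant ATTAAA, and the others have AATAAA.

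H2BC15 lies at chr6:27837760-27865798 (GRCh38, plus strand), a locus whose exons in all annotated transcripts cover 5477 bases and enclose all of H2AC15 on the other strand. H2BC5 lies at chr6:26158146-26171349 (plus strand), with 871 exonic bases. The 250 bases upstream of the RefSeq start (GRCh38.p14) are given for both, for H2BC21, which also responded, and for H2BC9, an H2B gene whose response did not pass the test. Capitals mark every match, on either strand, to the H2B octamer ATTTGCAT (reverse complement ATGCAAAT), to CCAAT or to TATAAA; none of these matches overlapped.
H2BC15 promoter, chr6:27838319-27838568, plus strand: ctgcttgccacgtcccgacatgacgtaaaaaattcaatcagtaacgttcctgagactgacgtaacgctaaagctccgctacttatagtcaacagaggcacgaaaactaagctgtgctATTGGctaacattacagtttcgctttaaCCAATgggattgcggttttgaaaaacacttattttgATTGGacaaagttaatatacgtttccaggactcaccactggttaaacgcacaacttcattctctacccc
H2BC5 promoter, chr6:26157871-26158120, plus strand: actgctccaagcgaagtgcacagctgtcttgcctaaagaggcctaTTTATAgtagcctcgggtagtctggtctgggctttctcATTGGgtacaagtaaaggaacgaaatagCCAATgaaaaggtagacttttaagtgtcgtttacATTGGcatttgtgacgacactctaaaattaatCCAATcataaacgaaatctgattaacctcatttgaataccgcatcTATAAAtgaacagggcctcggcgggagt
H2BC21 promoter, chr1:149886683-149886932, minus strand: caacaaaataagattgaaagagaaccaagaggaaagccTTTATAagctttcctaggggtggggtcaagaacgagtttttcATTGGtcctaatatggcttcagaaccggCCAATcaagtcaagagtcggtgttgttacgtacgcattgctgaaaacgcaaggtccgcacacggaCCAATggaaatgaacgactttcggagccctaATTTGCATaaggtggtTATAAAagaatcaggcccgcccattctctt
H2BC9 promoter, chr6:26251364-26251613, plus strand: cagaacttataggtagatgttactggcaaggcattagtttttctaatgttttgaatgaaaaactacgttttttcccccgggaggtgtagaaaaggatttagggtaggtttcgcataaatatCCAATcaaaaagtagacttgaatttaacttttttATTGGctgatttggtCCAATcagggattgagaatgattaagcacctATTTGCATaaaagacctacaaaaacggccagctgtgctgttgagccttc
H2BC15 had 3 CCAAT matches and neither of the other motifs, H2BC5 had 4 CCAAT and 2 TATAAA matches, H2BC21 had 1 octamer, 3 CCAAT and 2 TATAAA matches, and H2BC9 had 1 octamer and 3 CCAAT matches. RefSeq promoters were matched for 61 of the 71 members. The octamer was in 14 of 18 H2B and 11 of 14 H2A promoters, 1 of 10 H3 promoters and no H1 or H4 promoter, against 1.66% of all 27305 promoters. CCAAT was in 51 of the 61 promoters (33.0% of all promoters) and TATAAA in 40 (11.1% of all promoters). Among H2B genes the octamer was present in 6 of the 8 that passed the test at 3% O2 and in 8 of the other 10.

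A few members supplied most of the signal. H2BC12 alone took 26.7% to 41.6% of the members' counts, depending on the library, and the 5 most abundant members 64.7% to 70.8%. Per kilobase of exon, averaged over all 12 libraries, the level was 95.6 CPM per kb for H2BC12, 13.2 for H1-2, 10.1 for H2AC6, 7.23 for H2BC5, 4.90 for H2BC11, 4.08 for H2AC25, 2.69 for H2BC4, 1.77 for H2BC21 and 1.12 CPM per kb for H2BC15. The models of H2BC12 (381 bases) and H1-2 (642 bases) hold coding sequence only, so reads beyond it were not counted while the length was short, and the long H2BC15 model lowers its level. In all, 15 members averaged at least 1 CPM. Of the remaining 56, 15 were tested and 41 were not; among those 41, 9 had no count in any library (H2AC1, H2AC7, H2AC14, H2BC1, H2BC14, H3-4, H3C4, H4C7 and HIST2H3PS2), 4 had a single count in the series (H1-1, H2AC17, H2BC10 and H4C6) and the highest total over the 12 libraries was 99 (H2AC20). H2AC7, H3C4 and HIST2H3PS2 lie within exons of other annotated genes over 98.0%, 100% and 99.5% of their length, and H2AC14 shares 80.9% of its 100-base windows with other transcripts, so a value of 0 there does not show that they are silent.

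**Figure D1:**
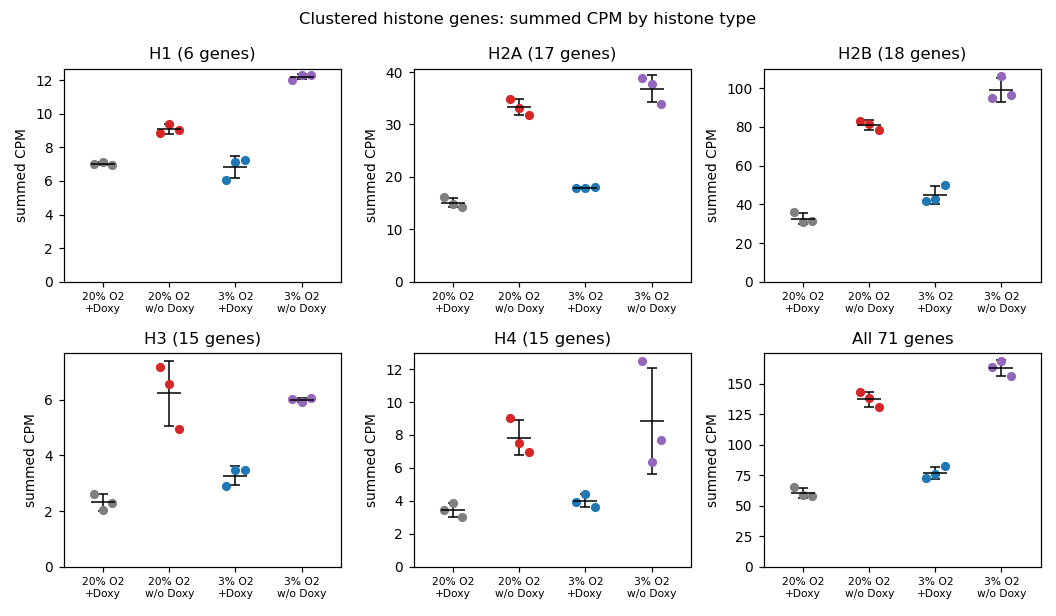
Summed CPM of the members of each histone type, and of all 71, in the 3 libraries (points) of each condition, with the mean and SD (black lines). In every panel the libraries without Doxy lie above those with Doxy at the same O2 level, and the spread relative to the mean is widest in H4 at 3% O2 without Doxy (SD 3.22 CPM for a mean of 8.84 CPM).

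Summed over the family, the level at 20% O2 was 60.4 ± 4.04 CPM with Doxy and 137 ± 6.02 CPM without (mean ± SD, n = 3), and at 3% O2 it was 76.8 ± 4.91 CPM with Doxy and 163 ± 6.21 CPM without. The plot by histone type shows that the libraries with and without Doxy did not overlap for any type at either O2 level. How often groups of 3 libraries are separated among all genes was not counted. H2B was the largest class, with 53.8% to 60.8% of the members' counts by condition, followed by H2A (22.6% to 25%), H1 (6.62% to 11.7%), H4 (5.23% to 5.69%) and H3 (3.69% to 4.52%). At 3% O2 the ratio of the mean sums, without over with Doxy, was 2.21 for H2B, 2.04 for H2A, 1.79 for H1, 1.83 for H3 and 2.21 for H4. H2B without H2BC12 had a ratio of 2.73. H4 without H4C9, a gene with 1 far library, had a ratio of 1.65.

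The comparison of 3% O2 without against with Doxy asks how FDX2 loss acts in low oxygen. The values it compares come from no library of the comparison that chose the family. The filter on low counts, the scaling and the estimated spread between replicates were taken from all 12 libraries, which include those. The calls and p-values of this fit are therefore not fully independent of that choice. Of the 30 members tested, 13 were higher without Doxy and none was lower in edgeR's quasi-likelihood test (adjusted p under 0.05 over 16891 genes), beside a background of 4.20% of all tested genes called higher and 3.11% called lower. The median log2 fold change was 0.87 over the 30 members and 0.04 over all tested genes. Members with few counts passed the filter on low counts partly through the conditions in which they were higher, so neither count nor median stands for all 71 members. Of the 15 members with a mean of at least 1 CPM over the 12 libraries, 11 were called higher; this mean too includes the libraries without Doxy, and H4C8 is under 1 CPM in those with Doxy. The count was 13 in each case without either of the libraries that stood apart (replicate 3 with Doxy or replicate 1 without Doxy) and 9 when the 6 libraries of this comparison were fitted alone. DESeq2, which gave no adjusted p for 10 of the 30, also called 13 higher and none lower. At an unadjusted p under 0.05 no member was lower by either tool, and the share of all tested genes at that threshold was not counted. The lowest edgeR log2 fold change among the 30 was 0.14.

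H2B genes, which encode a core histone that pairs with H2A, gave 8 of the 13 calls, out of 12 tested and 18 in all. H2BC15 was at 2.91, 3.25 and 3.27 CPM with Doxy and at 9.10, 8.77 and 8.73 CPM without. The groups were far apart, and the log2 fold change was 1.5 ± 0.0877 (SE; edgeR, adjusted p = 1.61e-05). H2BC5 was at 3.08, 3.25 and 3.49 CPM with Doxy and at 9.38, 10.6 and 9.01 CPM without. It rose by 1.56 ± 0.123 on the log2 scale (edgeR, adjusted p = 7.46e-05), close to H2BC15 in both level and change.

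H2BC12, the most abundant member, was at 27.1, 27.0 and 34.2 CPM with Doxy and at 55.4, 62.1 and 53.7 CPM without. All libraries without Doxy were higher, yet the log2 fold change of 0.95 ± 0.115 (edgeR, adjusted p = 0.000995) was below that of most other H2B genes called. H2BC11 had the largest change of the called members. Its values were 1.65, 2.18 and 2.04 CPM with Doxy and 7.09, 8.69 and 9.26 CPM without, a log2 fold change of 2.09 ± 0.136 (edgeR, adjusted p = 2.83e-05). H2BC21, on chromosome 1, was at 2.10, 1.76 and 2.07 CPM with Doxy and 5.15, 5.44 and 6.18 CPM without, a change of 1.5 ± 0.130. H2BC4, at 1.13, 1.11 and 1.03 CPM with Doxy and 2.98, 3.49 and 3.09 CPM without, changed by 1.54 ± 0.192.

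Among H2B genes of lower level, H2BC17 was counted 10, 8 and 14 times with Doxy and 22, 38 and 43 times without, and H2BC7 3, 3 and 5 times with Doxy and 13, 13 and 12 times without. Both were called higher on few counts, with log2 fold changes of 1.77 ± 0.316 and 1.87 ± 0.341. Fitted without the 20% O2 libraries neither was called (adjusted p of 0.0603 and 0.0738), and H2BC7 reached 10 counts in all 3 libraries of a condition only where it was high, so it passed the filter through that condition. Not every H2B gene passed the test. H2BC9 had 1.84 ± 0.305 CPM with Doxy and 2.38 ± 0.180 CPM without, and its change of 0.38 ± 0.210 did not pass (edgeR, adjusted p = 0.311). H2BC6, H2BC8 and H2BC18 also did not pass, at 0.56, 0.56 and 0.42 on the log2 scale. The 6 untested H2B genes had at most 11 counts in any library.

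H2A genes gave 2 calls among 7 tested and 17 in all. H2AC6 was at 10.5, 10.8 and 10.1 CPM with Doxy and at 28.2, 25.3 and 23.3 CPM without, a narrow spread in each group, and it rose by 1.29 ± 0.0784 (edgeR, adjusted p = 1.77e-05). H2AC11 rose from 2.05 ± 0.345 to 4.13 ± 0.320 CPM (SD, n = 3), by 1.01 ± 0.15 (edgeR, adjusted p = 0.00294). Fitted without the 20% O2 libraries, its adjusted p was 0.0630. The H2AC25 groups overlapped, with 2.69, 3.44 and 3.62 CPM with Doxy and 3.50, 4.25 and 3.52 CPM without (0.21 ± 0.166, adjusted p = 0.486). The near-identical HIST2H2AA3 and HIST2H2AA4, whose 100-base windows occur elsewhere in the transcriptome for 100% and 96.8% of positions, may share or lose reads and gave 1.25 ± 0.346 and 0.73 ± 0.269, neither called. H2AC15 lies wholly within the exons of H2BC15 on the other strand, and its change of 0.88 ± 0.451 cannot be told apart from that of H2BC15 if reads were counted without strand.

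H1-2, a linker histone, was the only H1 gene tested of 6. Its values were 5.80, 6.72 and 7.14 CPM with Doxy and 11.7, 11.9 and 11.9 CPM without, with no overlap, and it rose by 0.85 ± 0.0824 (edgeR, adjusted p = 0.000308). The other 5 H1 genes had at most 10 counts in any library.

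H3 genes gave 1 call among 4 tested and 15 in all. H3C6 was at 1.20, 1.38 and 1.10 CPM with Doxy and at 3.10, 2.46 and 2.96 CPM without, a log2 fold change of 1.21 ± 0.158 (edgeR, adjusted p = 0.00135). Fitted without the 20% O2 libraries, its adjusted p was 0.0542. H3C10, HIST1H3C and H3C8 changed by 0.74 ± 0.294, 0.58 ± 0.487 and 0.14 ± 0.466 and were not called.

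H4 genes gave 1 call among 6 tested and 15 in all. H4C8 was at 0.615, 0.688 and 0.808 CPM with Doxy and at 2.21, 2.18 and 2.56 CPM without, a log2 fold change of 1.71 ± 0.218 (edgeR, adjusted p = 0.0012). H4C16, on chromosome 12, had overlapping groups and a change of 0.24 ± 0.183 (adjusted p = 0.457). H4C9 had 15, 11 and 5 counts with Doxy and 163, 22 and 34 counts without. Its fitted change was the largest of all members, 2.98 ± 0.819, but did not pass (edgeR, adjusted p = 0.0522). It was 1.45 without replicate 1 of 3% O2 without Doxy (adjusted p = 0.168). Leaving out replicate 2 or 3 of that condition instead gave 3.40 and 3.38, with adjusted p of 0.0400 and 0.0438, so this 1 library decides the value. H4C12, H4C14 and H4C5 changed by 0.55 to 0.80 without being called, and H4C12 and H4C14 share 100% and 94.9% of their windows with other genes.

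**Figure D2:**
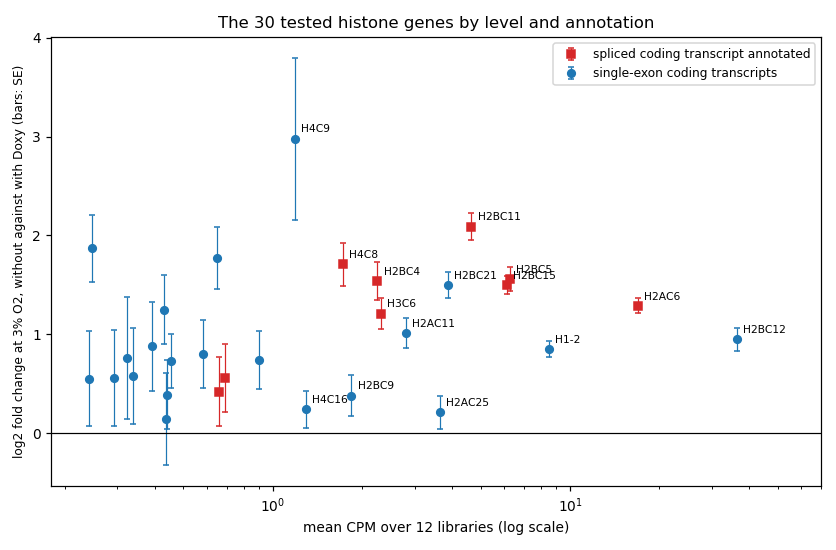
Log2 fold change of the 30 tested members at 3% O2, without against with Doxy, against the mean CPM over all 12 libraries (log scale), with standard errors. Squares are members with a spliced coding transcript in GENCODE 29 and circles are the others. The 7 squares with at least 1 CPM lie at 1.21 or above, and the 2 squares under 1 CPM lie at 0.56 (H2BC6) and 0.42 (H2BC18). The circles, at all levels, range from 0.14 to 2.98.

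By annotation, all 9 members with a spliced coding transcript were tested and 7 were called higher at 3% O2, with a median log2 fold change of 1.5. Of the 62 members without one, 21 were tested and 6 were called higher (H2BC12, H1-2, H2BC21, H2AC11, H2BC17 and H2BC7), with a median of 0.76. The difference between the classes was not tested, and the classes also differed in level: 7 of the 9 spliced members averaged at least 1 CPM, against 8 of the other 62. Within the 15 members of at least 1 CPM, the 4 that were not called (H2AC25, H2BC9, H4C16 and H4C9) all lacked a spliced coding transcript. The table counts whole genes, so reads from a spliced form and from a transcript that runs past the stem-loop were not separated. By annotated poly(A) signal, 9 of 18 tested members with a signal and 4 of 12 without were called higher. Those 4 were H2BC12, H1-2, H2BC17 and H2BC7. The models of H2BC12 (381 bases), H1-2 (642 bases) and H2BC17 (381 bases) hold coding sequence only, so a downstream signal could not be found in them. These counts therefore cannot show whether a signal marks the responders.

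Many H2A and H2B genes stand head to head, with 304 to 382 bases between their start codons in 12 pairs. Both partners were tested in 3 of these pairs, 1 of them the overlapping H2AC15 and H2BC15. In H2BC4 and H2AC6 both rose at 3% O2 (1.54 and 1.29), and in H2BC11 and H2AC11 both rose (2.09 and 1.01). The partners nevertheless differed in level. H2BC12 averaged 36.4 CPM and its neighbour H2AC12 0.0892 CPM, H2BC21 averaged 3.88 and H2AC20 0.278 CPM, and H2AC25 averaged 3.65 and H2BC26 0.171 CPM.

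At 20% O2, the comparison by whose values the family was chosen, the same kind of values are given without a test. The fit across all genes put 20 of the 30 members past its threshold as higher without Doxy and none as lower, beside 17.6% and 17.7% of all tested genes. The selection favours a high count here, and nothing is read from it. H2BC15 was at 1.79, 1.81 and 1.56 CPM with Doxy and at 10.6, 10.7 and 11.2 CPM without, a log2 fold change of 2.66 ± 0.0922. H2BC5 was at 2.01, 1.49 and 2.06 CPM with Doxy and at 10.3, 11 and 9.91 CPM without, a change of 2.48 ± 0.128. The largest value was that of H4C8, which was counted 11, 16 and 11 times with Doxy and 108, 119 and 95 times without (3.04 ± 0.229).

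Most of the abundant members had higher values without Doxy at 20% O2, in steps of different size. H2BC21 was at 1.53, 1.16 and 1.32 CPM with Doxy and at 6.55, 6.80 and 6.47 CPM without, a change of 2.30 ± 0.134. H2BC4 was at 0.543, 1.01 and 0.852 CPM with Doxy and at 3.82, 3.95 and 3.93 CPM without, a change of 2.28 ± 0.197. In neither gene did the groups overlap. H3C6 changed by 2.09 ± 0.160, and H2BC11 by 2.03 ± 0.137, from 1.63, 1.63 and 1.65 CPM to 6.96, 6.16 and 6.92 CPM. The most abundant members had smaller steps. H2BC12 was at 25.6, 20.4 and 20.1 CPM with Doxy and at 39.1, 37.3 and 34.9 CPM without. H2AC6 was at 8.79, 9.06 and 8.82 CPM with Doxy and at 23.8, 22.7 and 21 CPM without. H1-2 was at 6.49, 6.70 and 6.70 CPM with Doxy and at 8.57, 9.14 and 8.84 CPM without. H2AC6 (1.34), H2AC11 (1.16), H2BC12 (0.75), H2AC25 (0.75) and H1-2 (0.42) changed less. H2BC9 (0.32), H4C16 (0.38) and H4C9 (1.07) had overlapping groups. HIST1H3C was the gene with the lowest value, at 16, 4 and 12 counts with Doxy and 2, 6 and 3 without (−1.5 ± 0.560), and its groups overlapped.

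**Figure D3:**
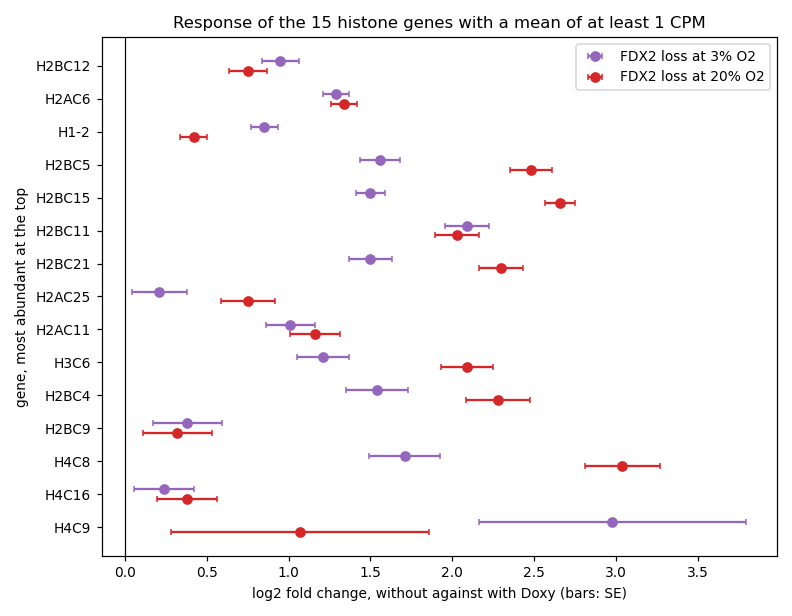
Log2 fold change without against with Doxy, with its standard error, for the 15 members with a mean of at least 1 CPM, at 3% O2 (purple) and 20% O2 (red). H2BC15, H2BC5, H2BC21, H2AC25, H3C6, H2BC4 and H4C8 lie further right at 20% O2, and H1-2, H2BC12 and H4C9 lie further right at 3% O2.

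With Doxy, 2 of the 30 were called higher at 3% than at 20% O2, H2BC15 (0.87 ± 0.0933) and H2BC5 (0.81 ± 0.130), and none was called lower, beside 1.63% and 0.385% of all tested genes. This comparison shares the libraries at 20% O2 with Doxy with the one that chose the family, so these values are described only. At an unadjusted p under 0.05, 10 were higher and none lower by edgeR, and 7 higher and none lower by DESeq2. The share of all tested genes at that unadjusted threshold was not counted. No member was called when the 6 libraries were fitted alone, and 4 were called without replicate 1 of 20% O2 with Doxy. The median log2 fold change over the members was 0.40, against −0.01 over all genes.

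Without Doxy, 3 members were called higher at 3% than at 20% O2 and 2 lower, beside 13.9% and 11.9% of all tested genes, so the share of members was near or below the background. H2BC12 (37.1 ± 2.10 against 57.1 ± 4.46 CPM, SD, n = 3), H1-2 (8.85 ± 0.283 against 11.8 ± 0.146 CPM) and the low HIST1H3C were higher at 3% O2. H2BC15 (10.9 ± 0.311 against 8.87 ± 0.201 CPM) and H3C6 (4.19 ± 0.539 against 2.84 ± 0.337 CPM) were lower. The same-numbered replicates of these conditions varied together. With the replicate number as a block, the 3 higher calls stayed and H3C6 was the only lower call. With the block and a GC correction on these conditions alone, H1-2 was no longer called (log2 fold change 0.19 in place of 0.42), nor were H2BC15 and H3C6, and H2BC12 was at 0.31 in place of 0.62. No member was called lower without replicate 1 or replicate 2 of 20% O2 without Doxy, or without replicate 2 of 3% O2 without Doxy, and 1 was without replicate 3 of either. Without replicate 1 of 3% O2 without Doxy, 5 were called higher.

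The difference between the responses at the 2 O2 levels was also fitted, as the log2 fold change at 3% O2 minus that at 20% O2. Of the 30 tested members, 5 were called lower in this difference (H2BC15, H2BC5, H2BC21, H3C6 and H4C8) and 1 was called higher (H1-2), beside 4.08% of all tested genes called lower and 3.21% called higher. H2BC15 had the value −1.16 ± 0.125 and H2BC5 −0.92 ± 0.174. For these genes the larger part lay in the conditions with Doxy. From 20% to 3% O2 they changed by 0.87 and 0.81 with Doxy, and by −0.29 and −0.11 without Doxy. The response at 20% O2 that enters this difference is the one by which the family was chosen, so the values are a description. With the replicate number as a block, only H2BC15 and H2BC5 were called. With 1 library left out, 2 to 5 members were called lower and at most 1 higher: the H1-2 call was lost without any library other than replicate 3 of 3% O2 with Doxy, and the lower calls were 2 or 3 without any of the 6 libraries at 20% O2, replicate 1 or 2 of 3% O2 with Doxy, or replicate 2 of 3% O2 without Doxy. H2AC6 (−0.05 ± 0.110) and H2BC11 (0.07 ± 0.191) were not called.

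Genes that make, process or use histone mRNA were examined from lists, for the same comparison at 3% O2. Over all tested genes, 3.11% were called lower and 4.20% higher in that comparison. The S-phase list had 42 tested genes, of which 19 had lower and none higher values without Doxy by the test. Their median log2 fold change, over all 42, was −0.24. At an unadjusted p under 0.05, 30 were lower and 1 (RFC2) was higher by edgeR. The share of all tested genes at that unadjusted threshold was not counted, here or for the other lists. MCM6, a subunit of the replicative helicase, fell by 0.62 on the log2 scale (edgeR, adjusted p = 7.07e-05), and PCNA, the sliding clamp of DNA polymerase, fell by 0.50 (adjusted p = 0.000356). The remaining 23 genes did not pass. The part of the S-phase list in the histone result was not tested.

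Of 13 genes of histone 3′ end processing, 2 were lower: SLBP, which binds the stem-loop, fell by 0.23 (406 to 345 CPM on average; edgeR, adjusted p = 0.00864) and CSTF2T, a cleavage stimulation factor, by 0.20 (adjusted p = 0.0338). Of 11 genes of histone transcription and the histone locus body, 3 were lower, the cyclins CCNE1, CCNE2 and CCNA2, and NPAT, the coactivator of clustered histone genes, was at −0.23 ± 0.0833 (adjusted p = 0.127). Of 8 genes of histone mRNA decay 1 was lower (DCP2, a decapping enzyme, −0.45), and of 13 genes of the nuclear poly(A) machinery 1 was lower (CPSF6, −0.24). Of 12 histone chaperones 2 were lower, NASP (−0.33) and CHAF1B (−0.35). The lists overlap: SLBP, CCNE2, NASP and CHAF1B are also on the S-phase list and are already among its lower genes. No gene of these 5 lists was called higher by edgeR; at an unadjusted p under 0.05, 1 was (LSM10, a subunit of the U7 particle that guides the cut), and DESeq2 was not run on the lists.

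Most histone variants are made throughout the cell cycle from mRNAs with ordinary poly(A) tails, while H2AX, also on this list, makes a stem-loop form as well; 10 were tested. H2AJ, an H2A variant, rose by 0.41 ± 0.0843 (edgeR, adjusted p = 0.0147), and CENPA, the centromeric H3, fell by 0.30 (adjusted p = 0.0154). H3-3B, at 678 CPM with Doxy and 615 CPM without, was at −0.14 ± 0.0679 and did not pass (adjusted p = 0.242). The median over the variants was −0.13, against 0.87 over the clustered genes tested.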

How the data were processed

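Poly(A) RNA of FDX2-iKO ES2 cells was sequenced on a DNBSEQ-T7 instrument (12 libraries, 3 per condition). The deposited values are counts of reads per gene, which the authors made with STAR and featureCounts on GRCh38 per the labels; versions, the strand setting and the handling of reads with several matches are not given in the sources used here. The gene identifiers matched GENCODE 29 for all 58735 rows. Per the series' design text, 1 of the paired read files was lost for replicates 1 and 2 of 20% O2 with Doxy, whose counts were used here as deposited.

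Genes passing filterByExpr (minimum count 10, minimum total 15) were scaled by TMM and fitted with edgeR 4.0.16's quasi-likelihood test (R 4.3.3) on all 12 libraries, 1 mean per condition, with 8 residual degrees of freedom and Benjamini-Hochberg adjustment over 16891 genes. Calls are at an adjusted p under 0.05. The p-values measure the spread between the replicates of 1 edited cell line. DESeq2 1.42.0, other filters, other scalings, a GC offset, the compared conditions alone and single libraries left out were tried, and the fits were tested on simulated data. CPM are counts scaled to 1000000 per TMM-adjusted library; levels per kb use the union of GENCODE 29 exons. Members with a mean of at least 1 CPM are given by name with their values, the most abundant and most changed in every library, and list genes by level and by call. Same-numbered libraries deviated together in all 3 pairs for 20% and 3% O2 without Doxy (correlations 0.190 to 0.497), and not for the other pairs of conditions; the labels name no shared culture. Total counts of 24958386 to 34313637 per library leave members under 1 CPM with few reads. Members and lists were chosen with earlier results of these data known. The result of 1 gene on a list is not reported here.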

Additional observations from a re-analysis of the deposited data

Results flagged for a closer look

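For 6 of the 15 members with a mean of at least 1 CPM, the response to FDX2 loss differed between 3% and 20% O2 by edgeR's test of the difference (adjusted p under 0.05 over all genes). None of the 15 tested members under 1 CPM was called. Over all tested genes, 4.08% were called lower and 3.21% higher in this difference. As the log2 fold change at 3% minus that at 20% O2, the difference was −1.16 ± 0.125 (SE) for H2BC15, −0.92 ± 0.174 for H2BC5, −0.80 ± 0.184 for H2BC21, −0.88 ± 0.222 for H3C6 and −1.32 ± 0.310 for H4C8, all higher at 20% O2. It was 0.44 ± 0.116 for H1-2, the linker histone, which changed more at 3% O2. The response at 20% O2 chose the family and is part of each difference, so these calls are no independent support. The calls also differed in how well they held. Of 18 alternatives, H2BC15 and H2BC5 were called in 18, H2BC21 in 10, H4C8 in 9, H3C6 in 6 and H1-2 in 3. With the replicate number as a block, only H2BC15 and H2BC5 were called.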

How the results depend on the processing

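For FDX2 loss at 3% O2, 9 to 15 members were called higher over 15 alternatives (main 13; 13 to 14 with 1 library left out) and none lower, and the median log2 fold change was 0.86 to 1.02 with 1 library left out and 1.20 with at least 10 counts required in every library. For the 15 named members, 187 of 194 refits kept the call and none reversed; H2AC11 and H3C6 lost theirs with the compared conditions alone, and H4C9 gained one in 5 refits. At 20% O2, 15 to 19 members were called higher and 0 to 1 lower with 1 library left out (HIST1H3C without replicate 2 of either condition); 12 were called higher with at least 10 counts in every library, and the median was 0.56 with no filter (1.01 to 1.21 with 1 library out). For 3% against 20% O2 with Doxy, 2 to 4 members were called higher with 1 library out, 5 with GC correction, and 0 with the compared conditions alone or with at least a 2-fold change. Without Doxy, 2 to 5 were called higher and 0 to 2 lower with 1 library out; lower calls were 0 with no filter, 1 with the replicate block and 4 with the compared conditions alone; adding the block to those conditions gave 2, and 1 with GC correction as well, both chosen after seeing the data. With at least a 2-fold change 1 was called higher and 0 lower. For the difference of the responses, 0 to 1 members were called higher and 2 to 5 lower with 1 library out; higher calls were 0 with no filter, with at least 10 counts in every library, with the replicate block, with GC correction and with a 2-fold minimum, and lower calls were 2 with no filter, with the block and with a 2-fold minimum. The block left H2BC15 and H2BC5 called in the difference, and the cause of these changes was not tested. With the replicate block, the paired fit, the same 13, 20 and 2 members were called higher as without it (FDX2 loss at 3%, at 20%, and low oxygen with Doxy). With the longest transcript as the length, 4 of 15 levels per kb moved by more than the spread between replicates; none of the 5 type shares did with tested members alone. No named fold change that was called changed sign. Members under 1 CPM rest on too few reads for small changes to be detectable.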
